A study of Mus musculus with 480 samples.

Results

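Bronchioalveolar stem cells (BASCs) were compared with club cells of the same reporter line, BASCs-Tracer, by the transcripts of single lung cells. Which cells belong to each group was taken from the labels. The series holds 480 cells of 3 lines, sorted into 5 plates of 96 wells. Of its 160 BASCs-Tracer cells, all but 22 were annotated as BASCs (85 on plate 1 and 53 on plate 2) and 15 as club cells (7 on plate 1 and 8 on plate 2), and the other 7 (6 AT2 and 1 ciliated cell) were not used. Both groups carry Sftpc-DreER and, as the labels spell it, Scgba1a1-CreER, together with the reporter R26-RSR-LSL-tdtomato. Here a Dre recombinase driven by the promoter of Sftpc and a Cre recombinase driven by that of Scgb1a1 each remove a stop cassette, so tdTomato marks a cell in which both acted at some time. By this design the 153 cells, club cells included, come from cells in which both promoters were used, and the label records past as well as present use. The same contrast in the line Scgb1a1-TD, with 38 BASCs and 97 club cells, is given for some genes. The labels used here give neither the number, age and sex of the mice nor the time of induction, and no treatment.

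Club cells are the secretory cells of the small airways. They release the secretoglobin encoded by Scgb1a1 and carry enzymes that modify inhaled chemicals. BASCs lie at the junction of terminal bronchioles and alveoli, are defined by joint expression of Scgb1a1 and of Sftpc, the surfactant protein C gene of alveolar type 2 (AT2) cells, and are known in mice to give rise to airway and alveolar epithelium after injury. AT2 cells make and recycle surfactant, which ties them to lipid synthesis.

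Each deposited value is a count of reads per gene in 1 cell. Reads assigned to genes came to 106587371 in BASCs (median cell 775502, range 21951 to 3233511) and to 14484650 in club cells (median cell 806067, range 14245 to 3196797). The deepest club cell, replicate 9, held 22.1% of all club cell reads. The shallowest was replicate 5, in which a few reads of a gene already give a high CPM, so lowest and highest club cell values can rest on few reads. Thinned to 100000 reads, which left out 5 BASCs and 2 club cells, a BASC had a median of 3139 genes and a club cell 3327. Because no animal is named, each group counts as 1 sample, so no test was possible and no p-value is given. Levels are reads summed over the cells of a group and scaled to all gene-assigned reads (CPM), a ratio is the log2 of BASC over club cell CPM with 1 CPM added to each, and a 2-fold ratio is used as a size for counting. How the sub-types were annotated is not stated in the labels. Where the annotation used these transcripts, differences in AT2 and club cell markers describe how the cells were named.

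The 4 genes that mark this comparison are shown first. Sftpc ranged over 28754, 164979 and 352814 CPM (lowest, median and highest cell) in BASCs, against 460, 8332 and 85855 CPM in club cells. Pooled, it stood at 174513 CPM in BASCs (95% Poisson interval 174433 to 174592, counting error only) and at 14297 CPM in club cells (14235 to 14358), a log2 ratio of 3.61, with 2.86 on plate 1 and 4.28 on plate 2. All but 7 BASCs lay above the highest club cell, which was replicate 5, the shallowest (14245 reads). Scgb1a1 ranged over 323, 5394 and 153509 CPM in BASCs, compared with 44110, 146157 and 260804 CPM in club cells. Pooled levels of 13416 CPM in BASCs and 139724 CPM in club cells gave a log2 ratio of -3.38 (-2.79 on plate 1 and -3.89 on plate 2), and all but 13 BASCs lay below the lowest club cell. Both genes had reads in every cell of both groups.

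Every cell held reads of both defining genes, but so did cells of another type. Plate 2 also held 5 ciliated cells of Scgb1a1-TD, with a median of 262574 reads per cell, against 572311 in the 53 BASCs and 971523 in the 8 club cells of that plate. Scgb1a1 in these ciliated cells had a median of 2543 CPM and reached 3097 CPM. In 31 of the 53 BASCs of plate 2 (58.5%) it was above that highest value, and in the other BASCs of that plate it was at or below it. Sftpc in the ciliated cells had a median of 4541 CPM and a highest value of 6291 CPM. All 53 BASCs of plate 2 exceeded it, and so did 4 of the 8 club cells. The low levels of Sftpc in the remaining club cells and of Scgb1a1 in the remaining BASCs are therefore not read as expression. Where the reads in the ciliated cells come from was not tested.

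**Figure D1:**
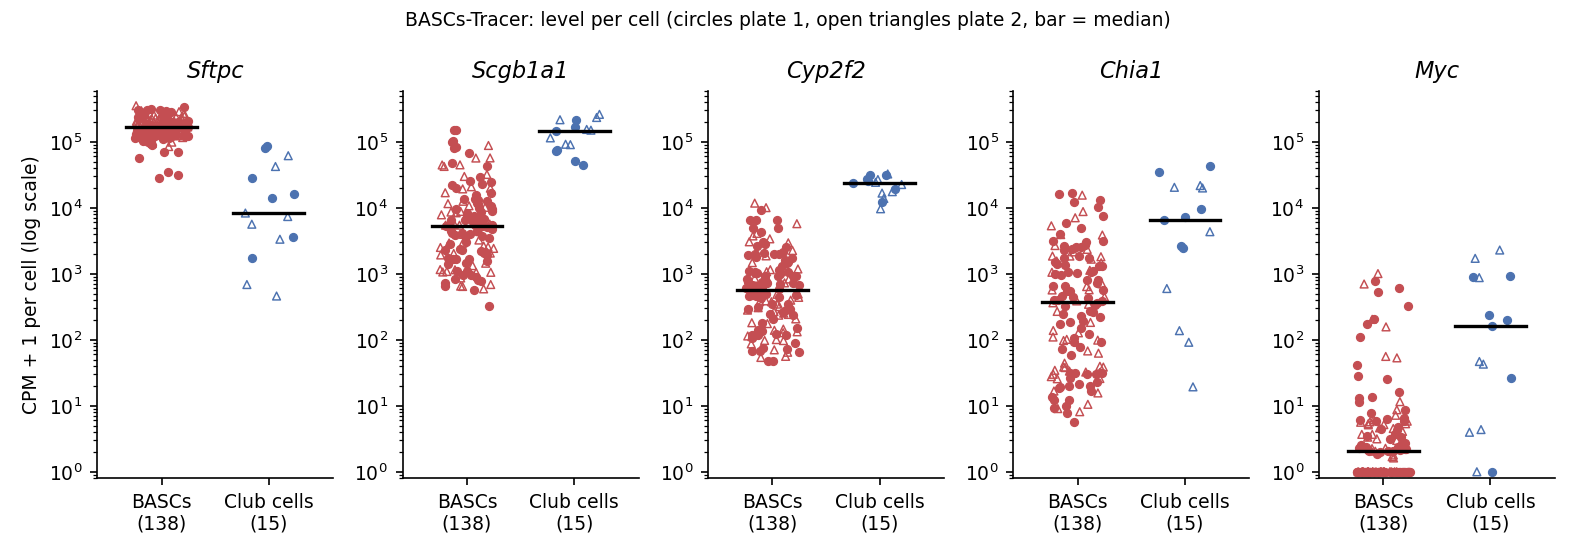
Level per cell (CPM + 1, log axis) of Sftpc, Scgb1a1, Cyp2f2, Chia1 and Myc in all BASCs (left in each panel) and the 15 club cells (right) of BASCs-Tracer. Filled circles are cells of plate 1, open triangles cells of plate 2 and bars medians over cells; Cyp2f2 nearly separates the groups, while Chia1 and Myc overlap between them.

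Chia1, which encodes an acidic chitinase that digests chitin and is listed here among AT2 genes, was lower in BASCs. It ranged over 4.62, 375 and 16749 CPM in BASCs, compared with 18.4, 6552 and 43600 CPM in club cells. The groups overlapped widely, with 5 club cells above every BASC, and the club cell was the higher one in 78.9% of all pairs of a BASC and a club cell. The pooled levels were 1713 CPM in BASCs and 14048 CPM in club cells (log2 ratio -3.04, with -3.37 on plate 1 and -2.74 on plate 2). In Scgb1a1-TD it went the other way, with 1902 CPM in BASCs and 294 CPM in club cells (log2 2.69, and 1.92, 2.43 and 4.03 on its 3 plates). This difference between lines was not tested.

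Myc encodes a transcription factor that drives growth genes. It ranged over 0, 1.08 and 1007 CPM in BASCs, compared with 0, 160 and 2291 CPM in club cells. After thinning, 10 or more Myc reads were found in 10 of the BASCs that were deep enough (7.52%, exact binomial 95% interval 3.66 to 13.4%). The same held for 8 of 13 club cells (61.5%, 31.6 to 86.1%). Both intervals treat cells as independent, although no animal is named. They leave out variation between animals and are not a test between the groups. The pooled levels were 59.6 CPM in BASCs and 712 CPM in club cells, a log2 ratio of -3.56 (-3.56 and -3.07 on plates 1 and 2). Replicate 9 alone held 53.1% of the Myc reads of club cells, and without it the ratio was -2.82. Among BASCs the highest Myc level was in replicate 90, a cell of 2886008 reads, and no BASC was left out in turn. In Scgb1a1-TD Myc was low in both groups, at 8.83 CPM in BASCs and 17.4 CPM in club cells (log2 -0.91), but plates differed, with ratios of -4.16, -3.67 and 0.47 on its 3 plates. On plate 2, which both lines share, its pooled level in that line was 0.523 CPM in BASCs and 26.2 CPM in club cells.

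Chia1 and the cytochrome P450 gene Cyp2f2 were both lower in BASCs than in club cells of this line, and their promoters are shown because the direction differed between lines for Chia1 and was shared for Cyp2f2: in Scgb1a1-TD, Cyp2f2 was again lower in BASCs (772 CPM, against 32264 CPM in club cells, log2 -5.38). The windows run from 250 bases before to 50 bases after the RefSeq start (build GRCm38.p6), both on the plus strand, at chr3:106113132-106113431 for Chia1 and chr7:27119705-27120004 for Cyp2f2. Capitals mark matches, searched on both strands, to the TATA box letters TATAAA and to the NKX2-1 letters CACTTGA, which do not overlap each other.
Chia1: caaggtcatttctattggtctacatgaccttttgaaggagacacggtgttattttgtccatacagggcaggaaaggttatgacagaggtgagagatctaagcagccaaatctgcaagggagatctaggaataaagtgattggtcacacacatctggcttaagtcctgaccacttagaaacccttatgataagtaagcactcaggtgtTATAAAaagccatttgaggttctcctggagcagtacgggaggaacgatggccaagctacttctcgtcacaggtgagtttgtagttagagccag
Cyp2f2: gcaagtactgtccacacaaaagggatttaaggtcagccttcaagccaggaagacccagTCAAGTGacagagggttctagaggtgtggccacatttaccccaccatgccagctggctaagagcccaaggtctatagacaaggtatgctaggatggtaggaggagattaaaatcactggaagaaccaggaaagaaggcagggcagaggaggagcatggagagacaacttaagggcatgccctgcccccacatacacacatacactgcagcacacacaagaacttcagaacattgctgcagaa
The Chia1 window held TATAAA, which starts 43 bases before the start site and is found in 13.6% of 32851 promoters of this length. The Cyp2f2 window held the reverse complement TCAAGTG, 192 bases before the start site, and 3.06% of promoters hold that motif. A match describes the letters only. Neither motif was found in the other gene's window.

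Of 10613 measured genes (5 CPM or more in either pool), 3380 were at least 2-fold higher in BASCs (31.8%) and 2227 at least 2-fold lower (21%), with a median log2 ratio of 0.17 over all of them. Of the genes past 2-fold, 60.3% were higher in BASCs. When medians over cells were compared, 2625 genes were measured. Of those past 2-fold 19.8% were higher in BASCs, and the median over the 2625 genes was -1.06. The counts of each list are to be read against 31.8%, 21% and 0.17, and ratios relative to the shift of all genes.

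Genes of AT2 cells were mostly higher in BASCs. Of 20 members, all measured, 17 were at least 2-fold higher and 1, Chia1, was lower, with a median log2 ratio of 2.88 (1.95 on plate 1 and 3.30 on plate 2). Lyz2, a lysozyme, ranged over 334, 84986 and 246071 CPM in BASCs, compared with 557, 2108 and 48368 CPM in club cells, and the BASC was higher in 97.9% of pairs. Its pooled log2 ratio was 5.02, from 86640 CPM in BASCs and 2665 CPM in club cells. On plate 2, where the ciliated cells reached 2675 CPM of Lyz2, 52 of 53 BASCs and 3 of 8 club cells were above that value. Reads of the near-identical Lyz1 may be shared with it. Sftpa1, a surfactant protein that club cells also make, overlapped more, with 7138, 48149 and 109324 CPM in BASCs and 10623, 25172 and 57181 CPM in club cells (log2 1.15). Hc, complement component 5, stood at 2299 CPM in BASCs and 122.5 CPM in club cells (log2 4.22), and 80.1% of the club cell reads came from 1 cell, replicate 2, without which the ratio was 6.42. Ctsh, a cathepsin that processes surfactant proteins, did not follow, at 1083 CPM in BASCs and 1309 CPM in club cells.

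Genes of club cells were lower in BASCs. Of 19 measured members 17 were at least 2-fold lower and none was higher by that size. The list median was -4.13 (-2.58 on plate 1 and -4.13 on plate 2), against -3.30 when club cell replicate 14 was left out. Cyp2f2, which oxidises inhaled aromatic compounds, ranged over 46.01, 573 and 11778 CPM in BASCs, compared with 9672, 23520 and 32598 CPM in club cells. The groups hardly overlapped, and the club cell was the higher one in 99.9% of pairs. Its pooled ratio of -4.22 varied little among cells left out, between -4.26 and -4.17. Aldh1a1, an enzyme of retinoic acid synthesis, ranged over 2.63, 21.98 and 1246 CPM in BASCs, compared with 498, 1371 and 3810 CPM in club cells, and was higher in the club cell in 98.9% of pairs. Hp, the haemoglobin-binding haptoglobin, stood at 1739 CPM in BASCs and 12418 CPM in club cells, a log2 ratio of -2.84. The 2 members with no such difference were Nupr1, a stress-induced nuclear protein, with 620 CPM in BASCs and 580 CPM in club cells (log2 0.10, and 0.88 without replicate 10), and the secretoglobin Scgb3a1, with 5.29 CPM in BASCs and 5.11 CPM in club cells. In Scgb1a1-TD Scgb3a1 stood at 4.73 CPM in BASCs and 3362 CPM in club cells.

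By the naming rule, 326 genes were higher in BASCs and 270 lower with the same direction on both plates and a 2-fold ratio whichever club cell was left out, and the 12 largest ratios of each direction are given. Those higher in BASCs had log2 ratios of 5.93 to 6.98 and were Hdc, Snhg11, Fabp5, Il33, H2-DMb1, Entpd1, Dmkn, Nrp1, Inpp4b, H2-Eb1, Bex2 and Stx12. Hdc, histidine decarboxylase, which makes histamine, ranged over 0, 151 and 3657 CPM in BASCs, compared with 0, 3.40 and 211 CPM in club cells, with 533 CPM pooled in BASCs and 3.24 CPM in club cells. Il33, an epithelial alarmin, ranged over 0, 340 and 4963 CPM in BASCs, compared with 2.08, 7.44 and 211 CPM in club cells. All club cells together held 47 reads of Hdc and 91 of Il33, so their highest values rest on few reads. Fabp5, a fatty acid carrier, had a pooled level of 276 CPM in BASCs and 2.49 CPM in club cells. These genes were uneven among BASCs: the BASC was higher in 67.97 to 85.1% of pairs. Dmkn, Bex2, H2-DMb1, Inpp4b and Stx12 had medians of 2.63 to 10.9 CPM over BASCs, far under their pooled levels of 85.2 to 213 CPM.

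The 12 genes lowest in BASCs had log2 ratios of -6.18 to -4.63 and were Scgb3a2, Akr1c14, Ces1g, Aldh1a1, Parm1, Lrrc26, Plpp3, Plaur, Pdk4, Igf1r, Cldn10 and Chad. Scgb3a2, a secretoglobin of the airways, ranged over 3.94, 88.6 and 5376 CPM in BASCs, compared with 32.3, 4108 and 47211 CPM in club cells. Its pooled ratio of -6.18 rested on few club cells, since replicate 14 held 61.7% of the reads, and it was -5.02 without that cell. Cldn10, a claudin of ion-selective junctions, was more even, with 0, 2.23 and 445 CPM in BASCs, compared with 3.06, 237 and 1342 CPM in club cells, and it was higher in the club cell in 96.4% of pairs. Plpp3, a lipid phosphate phosphatase, had 15.3 CPM in BASCs and 512 CPM in club cells and was higher in the club cell in 93.6% of pairs. Akr1c14, Pdk4 and Igf1r had 75.1, 74.9 and 78.3% of their club cell reads in replicate 9, and without it their ratios were -4.38, -3.24 and -2.83. Ces1g, a carboxylesterase, had a ratio of -5.78, and -5.14 without replicate 6. Chad had 73.8% of its club cell reads in replicate 14, and its ratio was -2.98 without it. The 12 genes were uneven among cells too: the club cell was higher in 63.6 to 98.9% of pairs. The lowest share was that of Chad, with a median of 1.35 CPM over club cells, far under its pooled level of 54.7 CPM.

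Antigen presentation genes were higher in BASCs. All 7 MHC class II genes were at least 2-fold higher, with a median log2 ratio of 5.29 (5.598 on plate 1 and 5.40 on plate 2). H2-Aa, a class II alpha chain, ranged over 1.14, 572 and 2969 CPM in BASCs, compared with 0.626, 10.3 and 702 CPM in club cells, and its pooled ratio was 5.52 (6.56 without replicate 10). H2-Ab1, its beta chain partner, stood at 1092 CPM in BASCs and 47.2 CPM in club cells (log2 4.50, and 5.34 without replicate 8). H2-Eb1, another beta chain, had a ratio of 5.97, and 6.58 without replicate 15. Cd74, the invariant chain that guides class II through the cell, was on in both groups, at 3277 CPM in BASCs and 553 CPM in club cells (log2 2.56). Leukocyte markers were also higher in BASCs on plate 1 (list median 3.89) but not on plate 2 (0.02), and the median was 2.62 over both. When plate 1 was left out, the 5 CPM filter was applied to plate 2 alone (9631 genes measured, against 10613). The list median of the members that then passed was -2.61, for the same plate 2 cells. Their summed pooled level was 47.6 CPM in BASCs (0 to 3636 CPM by cell) and 15.6 CPM in club cells (0 to 106.5 CPM), 3 of the 5 measured of 6 genes were at least 2-fold higher in BASCs and none lower, and Cd52 was at 0 in club cells. Ptprc, the pan-leukocyte phosphatase, stood at 12.5 CPM in BASCs and 0.0690 CPM in club cells, with 90.8% of its BASC reads in 1 cell. Without the 7 BASCs and 1 club cell that had 50 CPM or more of leukocyte markers, H2-Aa stood at 768 CPM and Ptprc at 0.119 CPM in BASCs, and the median ratio of the class II list was 5.25. Of 9 class I and processing genes 6 were at least 2-fold higher and 1, the immunoproteasome subunit Psmb9, was lower (12.97 CPM in BASCs and 35.8 CPM in club cells, log2 -1.40, and -0.76 with 1 club cell left out). Tap2 and Nlrc5, among the higher ones, were at 0 in club cells, so their ratios rest on the 1 CPM added. The class I list median was 0.69 on plate 1 and 1.36 on plate 2. H2-D1 had 1080 CPM in BASCs and 365 CPM in club cells, but its ratio was 0.69 on plate 1 and 2.41 on plate 2. B2m, the class I light chain, was close to the 2-fold line, with 992 CPM in BASCs and 476 CPM in club cells (log2 1.06), and was under it on plate 1 (0.59), without replicate 9 (0.81) and without replicate 13 (0.96).

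Lipid synthesis genes were also higher in BASCs. Of 13 measured genes of fatty acid and phosphatidylcholine synthesis, 8 were at least 2-fold higher and none lower, with a median of 1.70. Scd1, the desaturase that makes monounsaturated fatty acids, ranged over 195, 5559 and 24962 CPM in BASCs, compared with 60.1, 487 and 5265 CPM in club cells, and the BASC was higher in 94.2% of pairs. Its pooled ratio of 3.44 was 4.20 without club cell replicate 9. Fasn, fatty acid synthase, stood at 850 CPM in BASCs and 241 CPM in club cells (log2 1.81). Chka, which starts phosphatidylcholine synthesis, had overlapping cells and 688 CPM in BASCs, compared with 511 CPM in club cells. Of 13 sterol synthesis genes 11 were at least 2-fold higher and none lower, with a median of 1.39. Hmgcs1, an early enzyme of that pathway, ranged over 0, 110 and 1971 CPM in BASCs, compared with 0.857, 4.04 and 418 CPM in club cells, with a pooled ratio of 1.79 (3.28 without replicate 9, which held 73.1% of the club cell reads).

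Enzymes of xenobiotic metabolism ran the opposite way. Of 22 measured genes 21 were at least 2-fold lower in BASCs and none was higher, with a median of -2.66 (-2.27 and -2.79 on plates 1 and 2). The exception was the aldehyde oxidase Aox3, with 388 CPM in BASCs and 630 CPM in club cells. Cbr2, a carbonyl reductase of the lung, ranged over 863, 7240 and 99596 CPM in BASCs, compared with 23236, 49045 and 73735 CPM in club cells, so single BASCs reached the club cell range although the club cell was higher in 98.8% of pairs. The glutathione transferase Gstm1 had 217 CPM in BASCs and 2785 CPM in club cells, and the carboxylesterase Ces1d had 569 CPM in BASCs and 3111 CPM in club cells. Of 14 antioxidant genes 6 were lower and 1 higher by 2-fold, with a median of -0.82. Prdx6, a peroxiredoxin that also acts on surfactant phospholipid, ranged over 9.87, 883 and 4576 CPM in BASCs, compared with 1254, 6025 and 14276 CPM in club cells, a pooled ratio of -3.03.

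**Figure D2:**
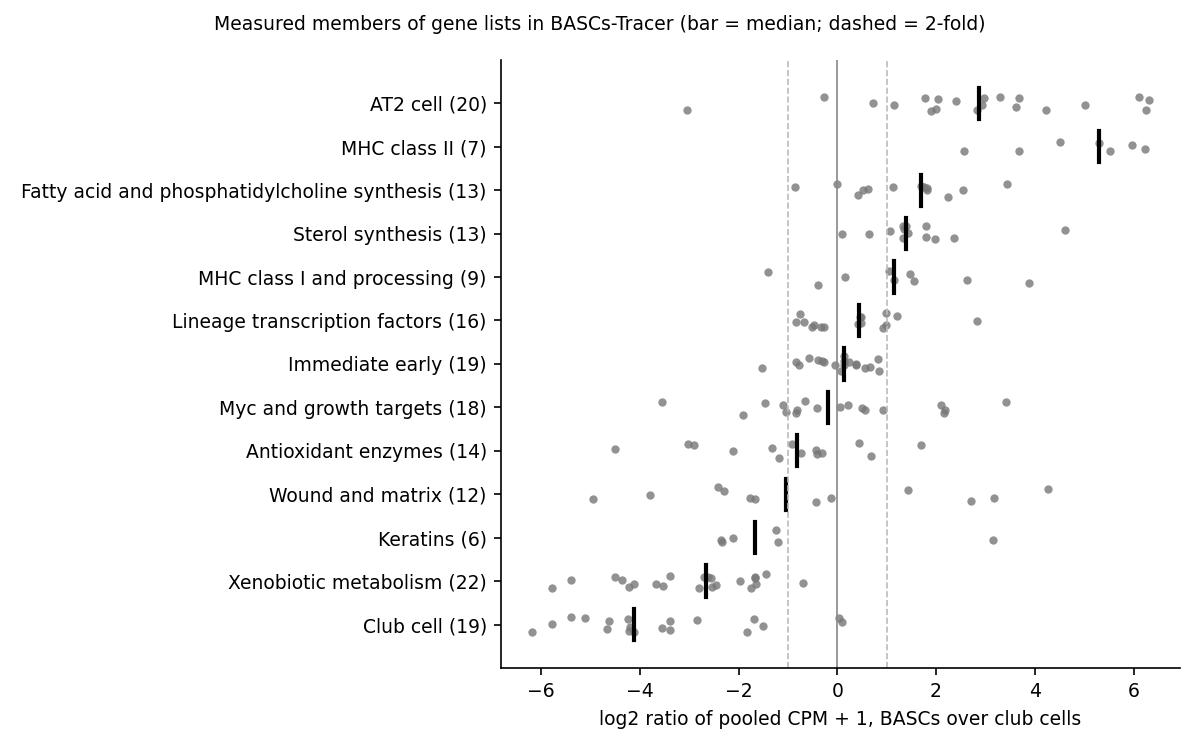
Log2 ratio of pooled CPM + 1, BASCs over club cells, of each measured member (grey points) of 13 gene lists, with the number of measured members in brackets and the list median as a bar. Dashed lines mark 2-fold: AT2, MHC class II and lipid lists lie to the right and the xenobiotic and club cell lists to the left, while 18 of 19 immediate early genes lie between the lines.

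Keratins were mostly lower in BASCs. Of 6 measured keratins 5 were at least 2-fold lower and 1 higher, with a median of -1.67 (-2.31 on plate 1 and -0.81 on plate 2). Krt8 ranged over 3.42, 523 and 4193 CPM in BASCs, compared with 450, 1360 and 4379 CPM in club cells (log2 -1.23), and the other simple-epithelium keratins had ratios of -1.20 for Krt18, -2.35 for Krt19 and -2.11 for Krt7. On plate 2 Krt8 was at -0.69 and Krt18 at -0.94, and Krt18 was at -0.99 without replicate 8. Of 9 claudin and junction genes 4 were lower, none was higher and 5 lay between: Cldn10, the junction scaffold Cgn (104.1 CPM in BASCs and 363 CPM in club cells), Cldn4 (81.3 CPM in BASCs and 220 CPM in club cells) and Ocln (48.7 CPM in BASCs and 106.7 CPM in club cells). The call was lost for Cldn4 on plate 2 (-0.72) and without replicate 10 (-0.88), and 63.4% of its BASC reads came from 1 cell. It was lost for Ocln on plate 2 (-0.29) and without replicate 2, 3 or 10 (-0.84 without replicate 2). Cldn18, a lung claudin, was similar, at 957 CPM in BASCs and 858 CPM in club cells. Of 11 ion and water transport genes 5 were lower, 1 was higher and 5 lay between. Among the lower ones were sodium channel subunits: Scnn1b had 12.5 CPM in BASCs and 203 CPM in club cells, and Scnn1g 23.9 CPM in BASCs and 122.8 CPM in club cells (log2 -2.31, and -1.42 without replicate 9). Cdh1, the epithelial cadherin, had 279 CPM in BASCs and 557 CPM in club cells (log2 -0.997, just short of 2-fold).

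Secreted defence proteins were mixed. Of 8 measured airway secretion genes 1, Lcn2, was at least 2-fold higher and 1, the mucin Muc5b, was lower. Lcn2, an iron-sequestering lipocalin, ranged over 0, 363 and 5482 CPM in BASCs, compared with 1.11, 7.72 and 211 CPM in club cells (pooled log2 4.66). Muc5b stood at 5.39 CPM in BASCs and 64.2 CPM in club cells, and replicate 3 held 71.8% of the club cell reads, with a ratio of -1.65 without it and -0.28 on plate 2. Complement and acute phase genes went both ways, with Hc, Itih4 and Lbp at least 2-fold higher and Hp, Cp, Cd55 and Saa3 at least 2-fold lower. Itih4, an acute phase protein of the liver, had 304 CPM in BASCs and 15.9 CPM in club cells (log2 4.18, and 6.33 without replicate 1), and Cd55, which protects cells from complement, had 165 CPM in BASCs and 481 CPM in club cells. All Saa3 reads of club cells came from 1 cell of plate 2, replicate 8, and the ratio was 0.04 without it. Lbp, which binds bacterial lipopolysaccharide, had 101.9 CPM in BASCs and 17.5 CPM in club cells (log2 2.48, and 3.63 without replicate 7). Cp, ceruloplasmin, had a ratio of -2.83, and -1.96 without replicate 14.

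The listed targets of Myc were mixed. Of 18 measured members of the list of Myc and growth targets, which includes Myc itself, 4 were at least 2-fold higher and 5 lower, with a median of -0.18. Odc1, the polyamine enzyme, was higher in BASCs, at 58.9 CPM against 4.63 CPM in club cells (log2 3.41). Replicate 6 held 88.1% of the club cell reads of Odc1, and the ratio was 5.24 without it. In a separate list of 12 cell cycle genes 4 were measured. At least 2-fold higher were Pcna (log2 1.62) and Mcm2 (3.37), and lower were Mcm3 (-2.16) and Ccnd1 (-1.79). Cyclin Ccnd1, a driver of cell cycle entry, ranged over 0, 4.78 and 798 CPM in BASCs, compared with 42.02, 264 and 670 CPM in club cells. Of 12 measured wound and matrix genes 6 were lower and 4 higher. Ccn1, a matricellular protein, ranged over 0.996, 176 and 7651 CPM in BASCs, compared with 70.2, 5346 and 16835 CPM in club cells. F3, tissue factor, ranged over 0, 3.19 and 1233 CPM in BASCs, compared with 104.4, 470 and 2327 CPM in club cells. It was higher in the club cell in 95.5% of pairs, and 41.2% of its BASC reads came from 1 cell. Plaur, the urokinase receptor, had 14.4 CPM in BASCs and 477 CPM in club cells (log2 -4.95). Of the EGF receptor ligands, Hbegf had 321 CPM in BASCs and 885 CPM in club cells, and Btc 33.6 CPM in BASCs and 222 CPM in club cells. Immediate early genes, which respond to tissue dissociation, were mostly similar: 1 of 19, Btg2, was at least 2-fold lower and none higher, with a median of 0.13. Fos stood at 3044 CPM in BASCs and 2880 CPM in club cells, and Btg2 had a ratio of 0.06 on plate 1 and -1.74 on plate 2.

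Lineage regulators differed little. Of 16 measured transcription factors 2 were at least 2-fold higher in BASCs and none lower. These were Etv5, which acts downstream of FGF receptors, and Cebpa, a factor of alveolar differentiation with 169 CPM in BASCs and 72.8 CPM in club cells (log2 1.21). Cebpa was under 2-fold on plate 1 (0.84) and without replicate 9 (0.86). Etv5 ranged over 0, 452 and 1797 CPM in BASCs, compared with 0, 4.54 and 1081 CPM in club cells. Its pooled ratio was 2.83, and 6.73 without club cell replicate 1, which held 94.9% of the club cell reads. Nkx2-1, the lung identity factor, ranged over 0, 222 and 1571 CPM in BASCs, compared with 1.29, 187 and 495 CPM in club cells (log2 0.48). The receptor Fgfr2 had 477 CPM in BASCs and 252 CPM in club cells. In the Wnt list 2 of 8 measured genes were higher and 4 lower: the feedback inhibitor Nkd1 had 105.2 CPM in BASCs and 15.2 CPM in club cells (log2 2.71, and 3.95 without replicate 6), and the factor Tcf7l2 had 33.7 CPM in BASCs and 145.3 CPM in club cells (log2 -2.07, and -1.31 without replicate 9). The Notch target Hes1 stood at 121.2 CPM in BASCs and 257 CPM in club cells, but its log2 ratio was 0.02 on plate 1 and -0.23 without replicate 14, and it was also under 2-fold without replicate 13. Of 8 measured genes in the list of progenitor surface markers 3 were higher and none lower, against 31.8% higher among all measured genes. The 3 were Kit (log2 2.84), Cd14 (1.11) and Bmi1 (1.95), which does not encode a surface protein. The list median was -0.81 on plate 1 and 1.04 on plate 2. Ly6a stood at 151.3 CPM in BASCs and 153.5 CPM in club cells, with ratios of -1.14 on plate 1 and 1.02 on plate 2, and Cd24a at 290.2 CPM in BASCs and 373 CPM in club cells.

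Markers of other cell types were low in most cells of both groups. No neuroendocrine or erythroid gene reached 5 CPM in either group, 3 of 12 ciliated genes did, and the summed ciliated level was 87.7 CPM in BASCs (0 to 945 CPM by cell) and 107.3 CPM in club cells (0.626 to 3174 CPM). Endothelial genes summed to 81.1 CPM in BASCs (0 to 2876 CPM) and 167 CPM in club cells (0 to 967 CPM), with Egfl7 and Tie1 at 0 in club cells. Mesenchymal genes summed to 104.9 CPM in BASCs (0 to 8777 CPM) and 90.2 CPM in club cells (0 to 579 CPM), with Col1a1, Dcn, Pdgfra, Pdgfrb and Mgp at 0 in club cells. AT1 genes were present in both, and Ager, a receptor of flat alveolar cells, ranged over 22.3, 1593 and 11922 CPM in BASCs, compared with 544, 2438 and 8011 CPM in club cells. Their part in the ratios was not tested, apart from the leukocyte markers above.

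The 15 club cells differed among themselves in Chia1 and Scgb3a2. All 7 club cells of plate 1 had over 1000 CPM of Chia1, but 4 of 8 on plate 2 did, whereas Scgb3a2 passed 1000 CPM in 2 of 7 on plate 1 and 6 of 8 on plate 2 (a level chosen after the values were seen). Over the 15 cells the Spearman correlation of the 2 genes was -0.70, and within plates it was -0.86 (n = 7) and -0.67 (n = 8). The cells share plates and depth differs between them, and this is the most negative of 7 gene pairs looked at. Over all BASCs it was 0.03, and over the 97 club cells of Scgb1a1-TD -0.43. Replicate 14 stood apart, with the highest Scgb1a1 (260804 CPM) and Scgb3a2 (47211 CPM) of the group, 90.7 CPM of Chia1, 687 CPM of Sftpc, and 167 Xist reads against 2 reads of Y-linked genes. It was also the 1 club cell over 50 CPM of leukocyte markers (106.5 CPM). It was the 1 club cell with more Xist than Y-linked reads, and 8 BASCs had 10 or more Xist reads and more of them than Y-linked reads. Such cells thus occurred in both groups.

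**Figure D3:**
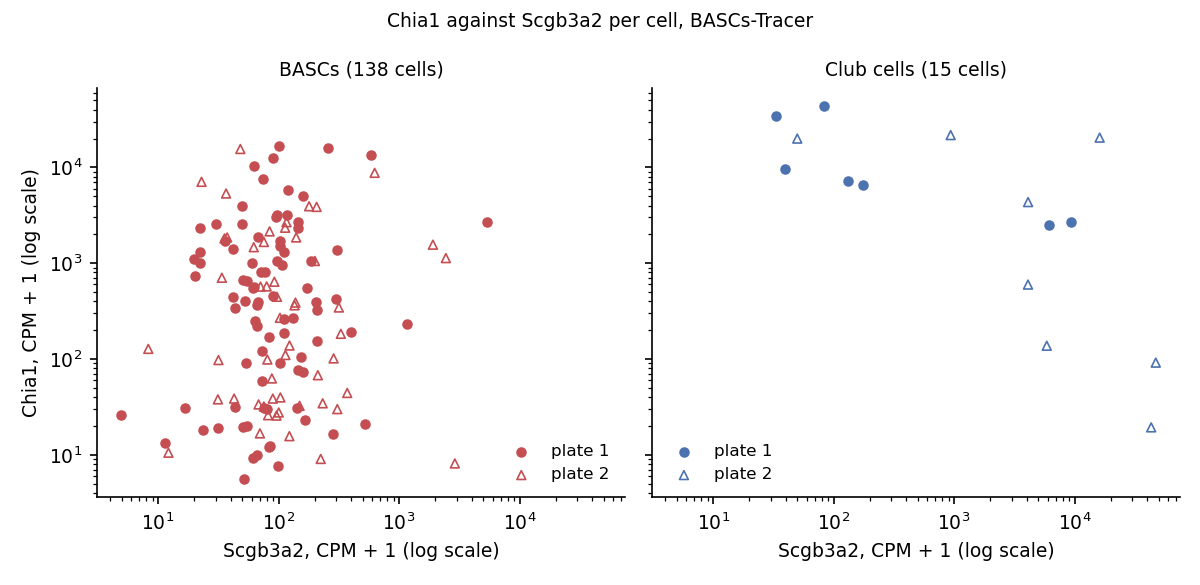
Chia1 against Scgb3a2 per cell (CPM + 1, log axes) in all BASCs (left) and the 15 club cells (right) of BASCs-Tracer, with plate 1 as filled circles and plate 2 as open triangles. In club cells Chia1 tends to be lower where Scgb3a2 is higher (Spearman -0.70), while BASCs show no such order (0.03). Club cell replicate 10 had both genes high (20448.5 CPM of Chia1 and 16158.5 CPM of Scgb3a2).

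In Scgb1a1-TD the same contrast gave 1832 of 10631 measured genes at least 2-fold higher in BASCs (17.2%) and 2623 lower (24.7%). All 12 genes highest in tracer BASCs were also at least 2-fold higher there, with ratios of 1.85 (Stx12) to 6.98 (Il33), and 11 of the 12 lowest were also lower, down to -8.40 (Scgb3a2). The exception was Plaur, with 13.01 CPM in BASCs and 23.5 CPM in club cells of that line. Sftpc and Scgb1a1 were further apart there, with log2 ratios of 5.99 and -6.20. The AT2 list had a median of 4.80 and the club cell list of -5.79 in Scgb1a1-TD, against 2.88 and -4.13 in BASCs-Tracer. Pooled Thbs1, a matrix protein of wound repair, had 51.5 CPM in BASCs and 90.03 CPM in club cells of that line, against 395 CPM in BASCs and 1346 CPM in club cells of BASCs-Tracer (log2 -1.77, with -0.98 on plate 2). Both lines share plate 2 only, and the differences between lines were not tested.

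**Figure D4:**
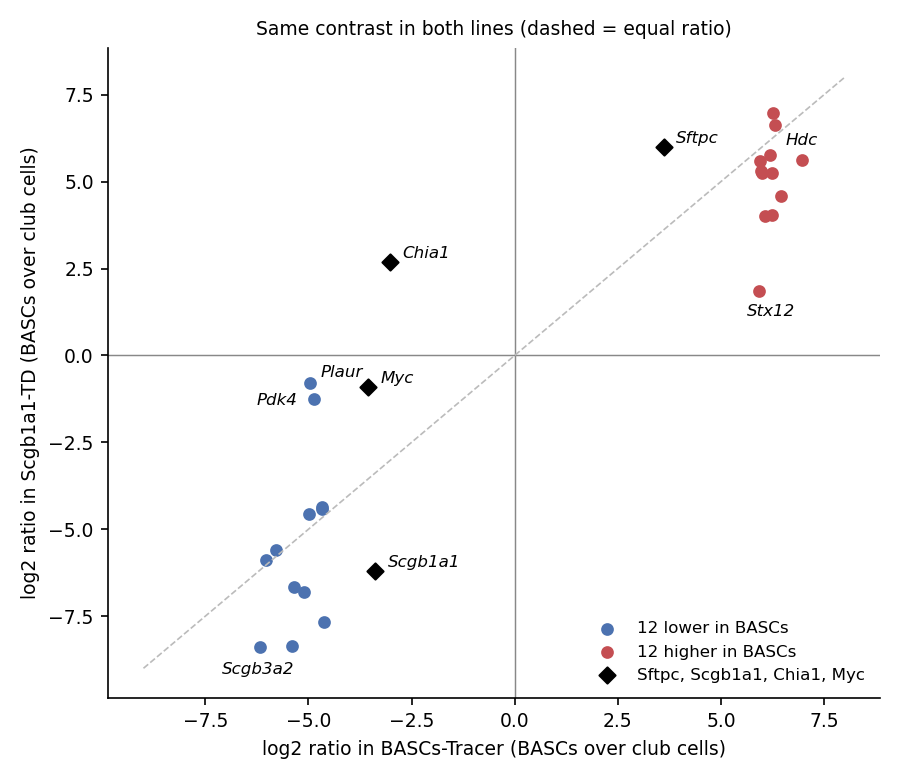
Log2 ratio, BASCs over club cells, in BASCs-Tracer (horizontal) and Scgb1a1-TD (vertical) for the 12 genes lowest (blue) and highest (red) in tracer BASCs and for Sftpc, Scgb1a1, Chia1 and Myc (black diamonds). Chia1 lies in the upper left quadrant (-3.04 and 2.69), and Plaur, Pdk4 and Myc lie near the horizontal axis.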

How the data were processed

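Single lung cells were sorted into wells, reverse transcribed with SuperScript II, amplified by PCR and made into Nextera XT libraries, per the labels' protocols. The submitters' processing notes name HISAT2, HTSeq and the build GRCm38, with no versions. The authors deposited whole-number counts of reads per gene and cell, with no scaling and no molecular identifiers, so Poisson intervals at the 95% level hold counting error only. The table lists 53379 gene identifiers, 53274 of which matched a symbol in GENCODE M21. Its header names no gene column, so name k was taken as count column k. Counts were summed over the cells of a group and scaled by all gene-assigned reads. Near-identical genes (Lyz1 and Lyz2, and the H2, Cyp2, Ces1, Gstm and Scgb3a families) may share reads, and strand is not stated.

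Members, 37 gene lists and settings were chosen with earlier results of these data known. Named genes reached 50 CPM in whichever group was higher and had reads in at least 50% of that group's cells, 1 direction on both plates and in the median over cells, and 2-fold or more whichever club cell was left out; the 12 largest per direction were named, with up to 4 members of each list by level and those on which a count of 5 or fewer rests. No doublet caller was run. Pooled ratios were tested on simulated data. Alternatives weighed cells by mean or median, thinned them, changed scaling, pseudocount and filters, and left out plates, cells with leukocyte markers and single club cells. Python 3.11.15, NumPy 2.4.6 and pandas 2.3.3 were used. Some results are not reported here.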

Additional observations from a re-analysis of the deposited data

Results flagged for a closer look

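Chia1 is given here because it differed in opposite directions in 2 lines: the log2 ratio of BASCs over club cells was -3.04 in BASCs-Tracer, below 0 on both of its plates, and 2.69 in Scgb1a1-TD, above 0 on all 3 of its plates. The difference between the lines was not tested, since each group is 1 sample.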

How the results depend on the processing

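The processing alternatives were applied to 2 gene counts, 35 list medians and the ratios of the genes given with values. Medians over cells could be had for 30 lists, and 34 lists had a value without plate 1 and without the cells with leukocyte markers. No paired analysis was possible because each group is 1 sample and the values come from no test. Of 10613 measured genes, 3380 were 2-fold or more higher in BASCs (31.8%) and 2227 lower (21%). The number of genes measured changed with some settings. Comparing medians over cells gave 329 higher and 1334 lower of 2625 genes (12.5 and 50.8%). Adding 10 CPM gave 1713 higher and 1353 lower of 10613 genes (16.1 and 12.7%). No filter on low genes gave 5855 higher of 21570 genes (27.1%). Leaving out single club cells gave 3220 to 3653 higher (30.2 to 34.5%) and 2195 to 2295 lower (20.8 to 21.6%).

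By medians over cells the ratio was 4.31 for Sftpc, -4.76 for Scgb1a1, -4.12 for Chia1 and -6.27 for Myc, and the club cell list median was -5.36. By the mean over cells Sftpc was 2.86. With 10 CPM added the club cell list median was -2.83, and it was -3.28 without the cells with leukocyte markers. Without plate 1 Sftpc was 4.28. Without plate 2 Sftpc was 2.86, Scgb1a1 -2.79, the AT2 list median 1.95 and the club cell list median -3.13, with members filtered on plate 1 alone. For the members measured over both plates the club cell list median was -2.58 on plate 1. Leaving out single club cells gave 3.26 to 4.10 for Sftpc, -3.51 to -3.15 for Scgb1a1, -3.26 to -2.79 for Chia1, -3.78 to -2.82 for Myc, 2.53 to 3.0 for the AT2 list and -4.22 to -3.30 for the club cell list. All of these kept their direction.

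The sign turned for Btg2 (0.062), Hes1 (0.015) and Saa3 (0.064) without plate 2. Saa3 ranged over -3.51 to 0.040 with single club cells left out. The pan-leukocyte list median was -2.61 without plate 1, where members were filtered on plate 2 alone. For the members measured over both plates it was 0.02 on plate 2. The endothelial list median was -0.18 by the mean over cells and -6.15 by medians over cells. The cause was not tested. With 15 club cells, 1 of them holding 22.1% of the reads, ratios of genes found in few club cells rest on single cells.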
